A study of Mus musculus with 10 samples.

Results

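Toll-like receptors and inflammasome proteins detect microbes and cell damage, and 10 of their genes are described here in cardiomyocytes isolated after myocardial infarction (MI). They are the receptors Tlr2, Tlr3, Tlr4, Tlr7, Tlr9 and Tlr13, the adaptor Myd88, the kinase-like regulator Irak3, and the inflammasome genes Nlrp3 and Casp1. They were chosen by name, as the rows of the deposited count table whose Ensembl identifier carries one of these symbols in the GENCODE M21 annotation of mouse genome GRCm38. All 10 were present among the 51789 genes of the table. All 10 also passed edgeR's filter on low counts, which kept 15232 genes for testing.

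Both groups of mice had MI, and cardiomyocytes were taken on day 4. TgGRK5-MI mice (5 libraries) carry a transgene that overexpresses G protein-coupled receptor kinase 5 (GRK5) in cardiomyocytes, and NLC-MI mice (5 libraries) are their non-transgenic littermate controls, with 1 library per mouse. The paper describes young adult mice of both sexes, and the labels give neither the age nor the sex behind each library. No sham-operated heart is among these libraries, so the values compare the 2 genotypes after MI and hold no value for MI itself. Expression is given as counts scaled to the size of the library (CPM), with edgeR's TMM factors.

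Library totals ran from 7968779 counts in NLC-MI 3 to 23381527 counts in NLC-MI 2, and TgGRK5-MI 4 held 9114469 counts. A gene with 3 counts, taken as the limit of the depth, lay between 0.121 and 0.393 CPM. The labels were checked on Grk5 itself, whose level ran from 46.5 to 73.1 CPM in the controls and from 552 to 1700.4 CPM in TgGRK5-MI. The cardiomyocyte identity was checked on 10 defining markers, which summed to 54015 to 141002 CPM in NLC-MI and 55569 to 107631 CPM in TgGRK5-MI. Markers of macrophages and monocytes, cells that use many of the genes described here, were also present at 790 to 2585 CPM in sum. In bulk libraries of this kind, a change in the number of such cells and a change in RNA per cell cannot be told apart.

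Toll-like receptors are membrane proteins with a ligand-binding part made of leucine-rich repeats and a signaling part inside the cell. Tlr2 and Tlr4 act at the cell surface, where Tlr2 binds lipoproteins and Tlr4 binds lipopolysaccharide with its partner Ly96. Tlr3, Tlr7, Tlr9 and Tlr13 act in endosomes, where they bind double-stranded RNA, single-stranded RNA, DNA with unmethylated CpG and bacterial ribosomal RNA. Apart from Tlr3, which signals through Ticam1, these receptors use Myd88, which brings IRAK kinases to the receptor and leads to NF-kappaB and interferon regulatory factors. Irak3 (IRAK-M) restrains that step. Nlrp3 is a cytosolic sensor of damage that assembles with the adaptor Pycard (ASC) and the protease Casp1, which matures interleukin-1β and interleukin-18. In the infarcted heart these receptors are known for sensing material of dying cells and for driving leukocyte recruitment.

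Promoter sequence shows which letters known for immune factors lie next to the start sites of these genes. RefSeq windows of 250 bases before an annotated start site (GRCm38.p6) were matched by symbol for 8 of the 10 genes, in 10 windows, with Nlrp3 and Irak3 having 2 each. Not every window lies upstream of the gene as GENCODE places it. Those of Tlr3 and Myd88, the second of Nlrp3 and the Irak3 window with the lower position lie inside the GENCODE gene. The windows of Tlr2 and Tlr13 lie partly inside it. The windows of Tlr9 and Casp1, in which no annotated exon lies, are printed whole. For Tlr2, Tlr3, Tlr13 and Myd88 only the 30 bases around the match are printed. The windows of Nlrp3 and Irak3 are not printed, although the second window of Nlrp3 also holds no annotated exon. Capitals mark the matched motif on either strand, and each sequence runs 5′ to 3′ on the strand of its gene. Tlr9 lies at chr9:106222348-106222597 (+), Casp1 at chr9:5298267-5298516 (+), Tlr2 at chr3:83841761-83841790 (-), Tlr3 at chr8:45410572-45410601 (-), Tlr13 at chrX:106143180-106143209 (+) and Myd88 at chr9:119340039-119340068 (-).
Tlr9: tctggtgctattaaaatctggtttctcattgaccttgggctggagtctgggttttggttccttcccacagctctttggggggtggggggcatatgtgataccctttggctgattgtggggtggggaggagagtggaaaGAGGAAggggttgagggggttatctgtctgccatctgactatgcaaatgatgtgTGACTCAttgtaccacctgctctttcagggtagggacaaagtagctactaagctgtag
Casp1: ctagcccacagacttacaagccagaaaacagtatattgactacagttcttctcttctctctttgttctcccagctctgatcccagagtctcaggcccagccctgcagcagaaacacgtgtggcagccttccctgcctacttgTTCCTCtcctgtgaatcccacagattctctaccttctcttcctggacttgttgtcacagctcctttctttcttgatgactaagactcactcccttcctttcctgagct
Tlr2: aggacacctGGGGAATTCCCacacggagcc
Tlr3: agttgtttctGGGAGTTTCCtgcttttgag
Tlr13: aaaaaaagagaaGAGGAAggaaatgtctca
Myd88: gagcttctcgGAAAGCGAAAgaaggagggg

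The core of the site of PU.1 (Spi1), a transcription factor of myeloid cells, was searched as GAGGAA on both strands. It lay in the windows of Tlr9, Tlr13, Casp1 and the second window of Nlrp3, that is in 4 of the 10 windows, and in 23.3% of all 32851 windows of this length. The kappaB consensus, the site of NF-kappaB, lay in the windows of Tlr2, Tlr3 and the first of Nlrp3, and in 7.25% of all windows. The core of the interferon-stimulated response element, which is GAAA, any 2 bases and GAAA, lay in the window of Myd88 and in 2.98% of all windows. The AP-1 site TGACTCA lay in the window of Tlr9 and in 4.46% of all windows. None of these 4 motifs was found in the windows of Irak3. A match is a run of letters and was not tested for binding.

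Levels were first compared between the genes per kilobase of exon, over all 10 libraries. Myd88, the shared adaptor, was the most abundant at 9.66 ± 2.24 CPM per kb (SD, n = 10). It was followed by Tlr2 at 4.58 ± 1.46, Tlr4 at 4.45 ± 0.720 and Tlr13 at 4.00 ± 1.38 CPM per kb. Tlr3 at 3.13 ± 1.2, Casp1 at 2.88 ± 0.979, Tlr7 at 2.66 ± 1.03 and Irak3 at 2.50 ± 1.06 CPM per kb came next. Tlr9 at 0.952 ± 0.528 and Nlrp3 at 0.546 ± 0.156 CPM per kb were lowest. Of the 9 pairs of neighbours in this order, 2 differed beyond the spread between libraries. Myd88 lay above Tlr2 in 10 of 10 libraries by a mean log2 difference of 1.11 ± 0.29 (SD, two-sided exact sign-flip permutation test, p = 0.00195, adjusted p = 0.00879 over the 9 pairs). Irak3 lay above Tlr9 in 10 of 10 libraries by 1.51 ± 0.88 on the log2 scale (SD, same exact permutation test, p = 0.00195, adjusted p = 0.00879). The surface receptors Tlr2 and Tlr4 were the closest pair, with a mean log2 difference of -0.01 ± 0.44 (SD, exact permutation adjusted p = 0.951). Tlr9 and Nlrp3 differed by 0.64 ± 0.88 on the log2 scale, with Tlr9 higher in 7 of 10 libraries (exact permutation adjusted p = 0.129). With the longest transcript as the length in place of all exons, 4 pairs differed and Tlr4 came before Tlr2.

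Between the genotypes, none of the 10 genes passed the test. At an unadjusted p under 0.05, 0 of 10 genes were called by edgeR's quasi-likelihood test, where 3.85% of all genes tested were called (1.77% higher and 2.08% lower in TgGRK5-MI). At an adjusted p under 0.10, 0 of 10 were called, where 0.0788% of all genes tested were called (0.0525% higher and 0.0263% lower). For none of the 10 did the groups fail to overlap, where 1% of all genes tested had groups that do not overlap. DESeq2 and limma-voom also called 0 of the 10 at either threshold. The log2 fold change of TgGRK5-MI against NLC-MI was above 0 for 9 of the 10 genes, with a median of 0.16, and the median over all genes tested was 0.00. A value above 0 was found for 50.2% of all genes tested. The number above 0 was 8 of the 10 with DESeq2, 4 with limma-voom, 6 without the 2 libraries with the fewest counts and 5 to 10 with single libraries left out.

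**Figure D1:**
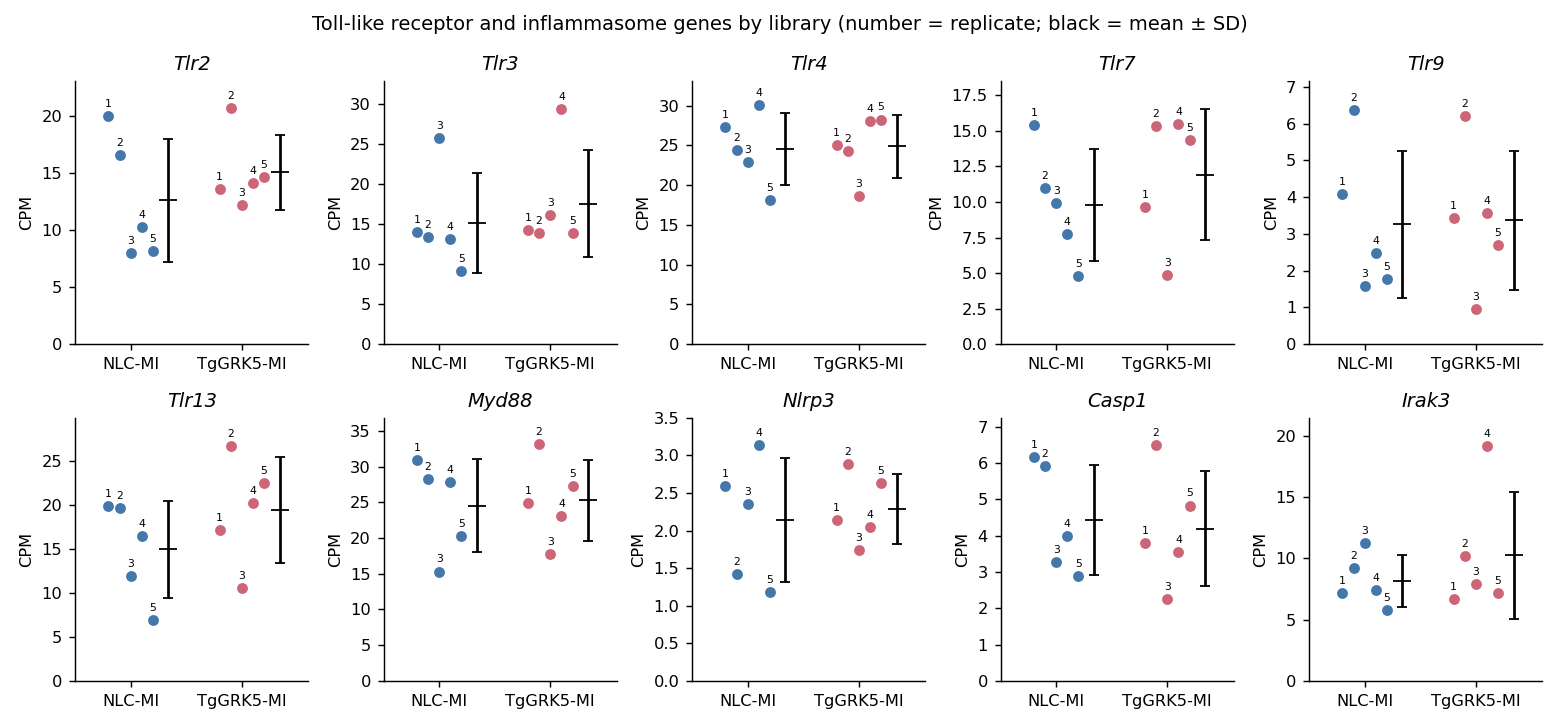
Expression of each gene in CPM (vertical axes, starting at 0) in the 5 NLC-MI libraries (blue) and the 5 TgGRK5-MI libraries (red), with the replicate number beside each point and the mean ± SD in black. The groups overlap for every gene, and TgGRK5-MI 4 stands above the other libraries of its group for Tlr3 at 29.4 CPM and Irak3 at 19.2 CPM.

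Among the surface receptors, Tlr2 (ENSMUSG00000027995, chromosome 3 from 83836272 to 83841767) stood at 19.95, 16.5, 7.98, 10.3 and 8.12 CPM in NLC-MI 1 to 5 and at 13.6, 20.6, 12.2, 14.1 and 14.7 CPM in TgGRK5-MI 1 to 5. The NLC-MI libraries split into 2 high ones and 3 low ones, and the TgGRK5-MI libraries lay within their range or just above it. All 5 TgGRK5-MI libraries were above the NLC-MI median. NLC-MI averaged 12.6 ± 5.39 CPM and TgGRK5-MI 15.0 ± 3.27 CPM (SD, n = 5 each). Tlr2 had a log2 fold change of 0.25 with a 95% interval from -0.35 to 0.85. Tlr4 (ENSMUSG00000039005, chromosome 4 from 66827584 to 66930284), the lipopolysaccharide receptor, was at 27.3, 24.5, 22.9, 30.03 and 18.1 CPM in NLC-MI 1 to 5 and at 25.0, 24.3, 18.6, 28.1 and 28.2 CPM in TgGRK5-MI 1 to 5. Its groups covered nearly the same range. Tlr4 had the narrowest interval of the 10 genes, with a log2 fold change of 0.02 (95% interval -0.36 to 0.39), which as a fold runs from 0.781 to 1.31.

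Of the endosomal receptors, Tlr13 (ENSMUSG00000033777, chromosome X from 106143204 to 106160493), which binds bacterial ribosomal RNA, had the highest fold change of the 10 genes. Its level was 19.9, 19.6, 11.9, 16.5 and 6.94 CPM in NLC-MI 1 to 5 and 17.2, 26.7, 10.6, 20.3 and 22.5 CPM in TgGRK5-MI 1 to 5. TgGRK5-MI 2, TgGRK5-MI 4 and TgGRK5-MI 5 were above every NLC-MI library, while TgGRK5-MI 3 was below 4 of them. Means were 15.0 ± 5.52 and 19.5 ± 6.05 CPM (SD, n = 5 each). Its log2 fold change of 0.38 had a standard error of 0.30 and a 95% interval from -0.29 to 1.04. The adjusted p of edgeR's test was 1.00, as for each of the 10 genes.

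Tlr7 (ENSMUSG00000044583, chromosome X from 167304929 to 167330558), a receptor of single-stranded RNA, was at 15.4, 11.01, 9.94, 7.74 and 4.78 CPM in NLC-MI 1 to 5 and at 9.62, 15.3, 4.87, 15.5 and 14.3 CPM in TgGRK5-MI 1 to 5. TgGRK5-MI 2, 4 and 5 lay near the top of the NLC-MI range and TgGRK5-MI 3 near its bottom. Tlr7 had a log2 fold change of 0.28 (95% interval -0.48 to 1.05). Tlr9 (ENSMUSG00000045322, chromosome 9 from 106222598 to 106226883), the receptor of CpG DNA whose window is printed above, was at 4.10, 6.36, 1.57, 2.49 and 1.77 CPM in NLC-MI 1 to 5 and at 3.44, 6.20, 0.956, 3.55 and 2.68 CPM in TgGRK5-MI 1 to 5. Library 2 was the highest of both groups. Tlr9 rested on 11 to 157 counts per library and had the widest interval of the 10 genes, with a log2 fold change of 0.03 (95% interval -0.99 to 1.05), or a fold between 0.504 and 2.08.

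Tlr3 (ENSMUSG00000031639, chromosome 8 from 45395665 to 45411080), the receptor of double-stranded RNA that does not use Myd88, was at 14.0, 13.4, 25.8, 13.2 and 9.16 CPM in NLC-MI 1 to 5 and at 14.3, 13.9, 16.2, 29.4 and 13.9 CPM in TgGRK5-MI 1 to 5. One library of each group stood apart, NLC-MI 3 and TgGRK5-MI 4, and these are the 2 libraries with the fewest counts. The other libraries lay between 9.16 and 16.2 CPM. For Tlr3 the log2 fold change was 0.22 (95% interval -0.43 to 0.86) with all libraries, -0.04 without TgGRK5-MI 4 and 0.49 without NLC-MI 3. An antisense gene, Gm45542, shares 381 exon bases with Tlr3 on the other strand and had at most 1 count in any library.

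Myd88 (ENSMUSG00000032508, chromosome 9 from 119335934 to 119341411) was at 30.9, 28.3, 15.3, 27.9 and 20.2 CPM in NLC-MI 1 to 5 and at 25.0, 33.2, 17.7, 23.1 and 27.3 CPM in TgGRK5-MI 1 to 5. The adaptor's groups overlapped over nearly their whole range, at means of 24.5 ± 6.51 and 25.3 ± 5.68 CPM (SD, n = 5 each). Myd88 had a log2 fold change of 0.04 (95% interval -0.44 to 0.52). Myd88 shares 290 exon bases with Acaa1a, a gene on the other strand that had 190 to 2035 counts per library, and without a stated strand setting the reads of these bases cannot be assigned to one gene.

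Irak3 (ENSMUSG00000020227, chromosome 10 from 120141648 to 120202130), the regulator that restrains Myd88 signaling, was at 7.14, 9.23, 11.3, 7.41 and 5.76 CPM in NLC-MI 1 to 5 and at 6.71, 10.2, 7.91, 19.2 and 7.19 CPM in TgGRK5-MI 1 to 5. The highest library of each group was again NLC-MI 3 and TgGRK5-MI 4, as for Tlr3. For Irak3 it was 0.32 on the log2 scale (95% interval -0.34 to 0.99) with all libraries and -0.02 without TgGRK5-MI 4. Irak3 shares 192 exon bases with Tmbim4 on the other strand, a gene with 581 to 1189 counts per library.

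The sensor Nlrp3 (ENSMUSG00000032691, chromosome 11 from 59541568 to 59566956) was at 2.60, 1.42, 2.36, 3.14 and 1.18 CPM in NLC-MI 1 to 5 and at 2.15, 2.88, 1.74, 2.05 and 2.63 CPM in TgGRK5-MI 1 to 5. All TgGRK5-MI values fell inside the NLC-MI range. It was the least abundant of the 10 genes, on 18 to 67 counts per library, and its log2 fold change was 0.11 (95% interval -0.54 to 0.76). Casp1 (ENSMUSG00000025888, chromosome 9 from 5298517 to 5307265), the protease of the inflammasome, was at 6.17, 5.91, 3.27, 3.99 and 2.88 CPM in NLC-MI 1 to 5 and at 3.80, 6.50, 2.26, 3.55 and 4.83 CPM in TgGRK5-MI 1 to 5. Casp1 had the only fold change under 0 of the 10 genes, -0.09 on the log2 scale (95% interval -0.76 to 0.59). TgGRK5-MI 2 was its highest library and TgGRK5-MI 3 its lowest.

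**Figure D2:**
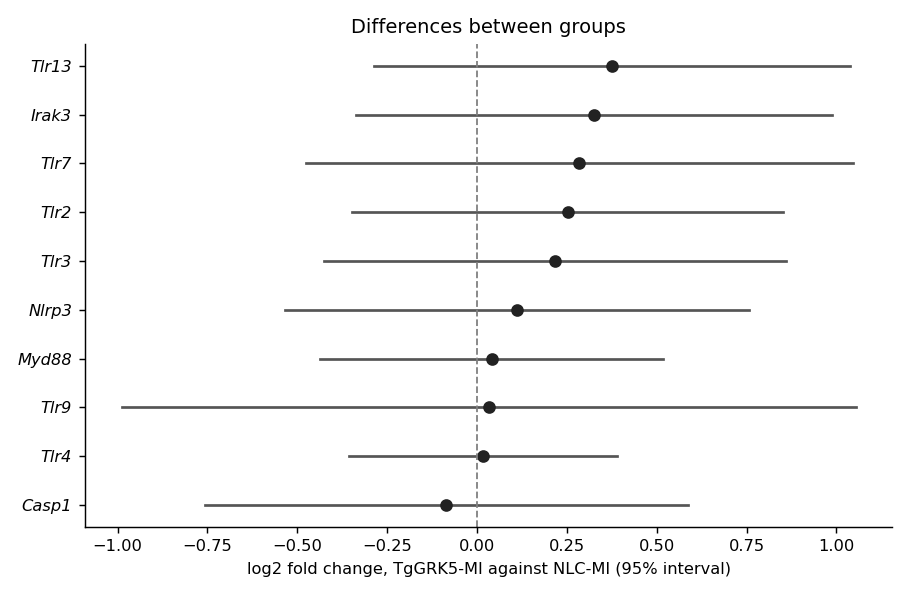
Log2 fold change of TgGRK5-MI against NLC-MI (horizontal axis, point) with its 95% interval from edgeR's quasi-likelihood fit (bar) for each gene. Every interval crosses 0, from Tlr13 at 0.38 to Casp1 at -0.09.

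Over the 10 genes the standard error lay between 0.17 and 0.47 on the log2 scale, and the unadjusted p of edgeR's quasi-likelihood test lay between 0.240 and 0.946. The two-sided exact permutation test of the difference in mean log2 CPM gave p between 0.278 and 0.976, where 5 against 5 libraries allow 0.00794 at the smallest. The intervals bound what a difference could be at this depth and number of mice. Their outer ends over the 10 genes were a fold of 0.504 and a fold of 2.08. Over all alternative fits, those that omit a single library included, the lowest unadjusted p of any of the 10 genes was 0.0827 (Tlr3 without NLC-MI 3) and the lowest edgeR, DESeq2 or limma adjusted p was 0.648.

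Across the libraries, 6 of these genes followed the markers of macrophages and monocytes. A score was formed for each library as the mean of the standardised log2 CPM of 14 such markers, and likewise for 8 tested neutrophil markers and 8 endothelial markers, with 30 pairs of gene and score in all. Of the 10 genes, 6 were correlated with the macrophage and monocyte score at an adjusted p under 0.05 over the 30 pairs (permutation test with 100000 resamples, two-sided, n = 10 libraries). With the neutrophil score and with the endothelial score, 0 of 10 genes passed, at r from -0.09 to 0.67 and from 0.14 to 0.64. The highest of these were Nlrp3 with neutrophil markers (2.76% of all genes tested as high) and Tlr7 with endothelial markers (5.01% as high). The share of all genes tested that would pass the same threshold was not computed for any of the 3 scores. The counts of 6 and 0 genes are therefore not set against a background. Some of these pairs passed under an alternative. With library size alone the endothelial score passed with Tlr4 (r = 0.77, permutation adjusted p = 0.0429) and Tlr7 (r = 0.81, adjusted p = 0.0317), and the neutrophil score with Nlrp3 (r = 0.74, adjusted p = 0.0468). With the log2 summed CPM as the score it was Irak3 with endothelial markers (r = 0.76, permutation adjusted p = 0.0483). Tlr4 (r = 0.84) and Tlr7 (r = 0.83) passed with endothelial markers without TgGRK5-MI 1, and Tlr3 (r = 0.82) with neutrophil markers without NLC-MI 4. The r of each of the 6 genes is given below with the share of all genes tested whose r was at least as high.

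**Figure D3:**
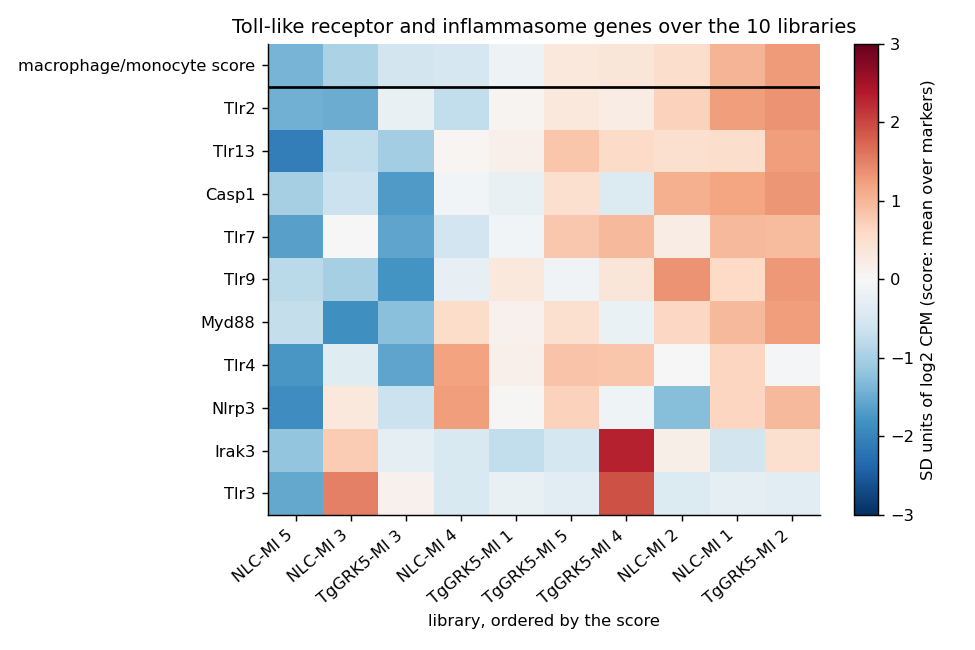
Log2 CPM of each gene in SD units (color) over the 10 libraries, which are ordered from left to right by the macrophage and monocyte score in the top row. The upper rows follow the score from NLC-MI 5 to TgGRK5-MI 2, while Irak3 and Tlr3 in the lowest rows are highest in TgGRK5-MI 4 and NLC-MI 3.

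Tlr2 followed the score most closely, at r = 0.97 and rho = 0.96 (permutation p = 1e-05, the smallest that the resamples can give, and p = 6e-05, adjusted p = 3e-04 and 0.0018), and 0.0853% of all genes tested had an r as high. Tlr13 was at r = 0.90 and rho = 0.88 (permutation p = 0.00011 and 0.00169, adjusted p = 0.00165 and 0.0127), as high as in 2.11% of all genes tested. Without NLC-MI 5 and TgGRK5-MI 2, the libraries farthest from the median of the score, r was 0.95 for Tlr2 and 0.81 for Tlr13. Both kept an adjusted p under 0.05 under every alternative, with r from 0.95 to 0.99 for Tlr2 and from 0.85 to 0.93 for Tlr13. With the group means removed r was 0.97 and 0.89.

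The other 4 genes that passed were Casp1, Tlr7, Tlr9 and Myd88. Casp1 was at r = 0.84 and rho = 0.88 (permutation p = 0.00278 and 0.00153, adjusted p = 0.0259 and 0.0127, 5.08% of genes as high). Tlr7 was at r = 0.83 and rho = 0.82 (permutation p = 0.00346 and 0.00655, adjusted p = 0.0259 and 0.0327, 5.99% of genes as high). An r of this size was reached by several percent of all genes tested, unlike that of Tlr2. Tlr9 was at r = 0.81 and rho = 0.90 (permutation p = 0.00546 and 0.00091, adjusted p = 0.0296 and 0.0127, 7.24% of genes as high). Myd88 was at r = 0.80 and rho = 0.85 (permutation p = 0.00592 and 0.00296, adjusted p = 0.0296 and 0.0178, 7.63% of genes as high). Without the 2 farthest libraries r was 0.78 for Casp1, 0.72 for Tlr7, 0.77 for Tlr9 and 0.78 for Myd88. Each of these 4 lost its call when certain single libraries were left out: without NLC-MI 1, TgGRK5-MI 2 or TgGRK5-MI 5, only Tlr2 and Tlr13 passed with this score. With the log2 summed CPM of the markers as the score, Tlr7 (r = 0.73) and Tlr9 (r = 0.74) lost their calls (permutation adjusted p = 0.0585 for both). Without the 2 libraries with the fewest counts, Tlr9 (r = 0.77, permutation adjusted p = 0.124) and Myd88 (r = 0.82, adjusted p = 0.0704) lost theirs.

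Tlr4 at r = 0.55 and rho = 0.41 (permutation p = 0.105 and 0.246, adjusted p = 0.262 and 0.519, though r = 0.73 and adjusted p = 0.0468 with library size alone), Nlrp3 at r = 0.44 and rho = 0.36 (p = 0.207 and 0.312, adjusted p = 0.345 and 0.520) and Irak3 at r = 0.29 and rho = 0.26 (p = 0.437 and 0.470, adjusted p = 0.625 and 0.705) did not pass. Tlr3 showed the weakest relation, at r = 0.07 and rho = 0.02 (permutation p = 0.839 and 0.973, adjusted p = 0.899 and 1.00), and 45.4% of all genes tested had an r as high. Among the 10 genes, Tlr3 and Irak3 are also the pair that peaked in the 2 libraries with the fewest counts, NLC-MI 3 and TgGRK5-MI 4. The peak was not particular to them, since Ube2n (221 and 192 CPM) and Tab2 (186 and 176 CPM) of the wider pathway were also highest there. Other pathway genes went the other way, such as Nod1, which was lowest there (16.6 and 15.6 CPM).

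The relation was not particular to the macrophage and monocyte score. All 8 marker lists were also scored, a choice made after the data were seen, and the 10 genes were set against each score in 80 pairs with the adjustment over all of them (permutation test with 100000 resamples, two-sided, n = 10 libraries). Tlr2, Tlr7, Tlr9, Tlr13, Myd88 and Casp1 passed with the macrophage and monocyte score, and the same 6 genes passed with the fibroblast score and with the cardiomyocyte score. With fibroblast markers their r lay between 0.76 (Myd88) and 0.91 (Tlr9), above 0 in each. With cardiomyocyte markers it lay between -0.94 (Tlr13) and -0.76 (Myd88), below 0 in each. These calls are by r, and by rho Tlr7 missed the threshold with fibroblast markers (rho = 0.75, permutation adjusted p = 0.0559). For the fibroblast, cardiomyocyte, dendritic cell, mural cell and lymphocyte scores, the share of all genes with an r as strong was not computed. The counts of genes that passed with these scores are therefore not set against a background. Dendritic cell markers passed with 3 genes (Tlr2, Myd88 and Casp1). Mural cell markers passed with 3 (Tlr7, Tlr9 and Casp1, of which only Casp1 also passed by rho). Lymphocyte markers passed with 1 (Tlr2), and neutrophil and endothelial markers with 0. Markers with too few counts to be tested were left out of the scores. The lymphocyte score therefore held only 2 of 10 markers, Cd4 (14 to 87 counts per library) and Cd79a (3 to 26). The dendritic cell score held 6 of 8 markers and the neutrophil score 8 of 10.

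Some of the scores moved together and others did not. With the macrophage and monocyte score, the neutrophil score had r = 0.14 and the endothelial score r = 0.35 (permutation adjusted p = 0.695 and 0.374). The lymphocyte, dendritic cell and mural cell scores had r = 0.85, 0.79 and 0.72 with it (permutation adjusted p = 0.00623, 0.0128 and 0.0284). Across the 10 libraries the macrophage and monocyte score had r = -0.96 and rho = -0.94 with the cardiomyocyte score (permutation p = 2e-05 and 0.0002, adjusted p = 0.00014 and 0.0007 over 7 scores, r = -0.91 without the 2 farthest libraries). With the fibroblast score it had r = 0.91 and rho = 0.95 (permutation p = 0.00033 and 5e-05, adjusted p = 0.00115 and 0.00035, r = 0.84 without the 2 farthest libraries). Which of these cell types carry the values of the 10 genes cannot be told apart in these libraries.

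**Figure D4:**
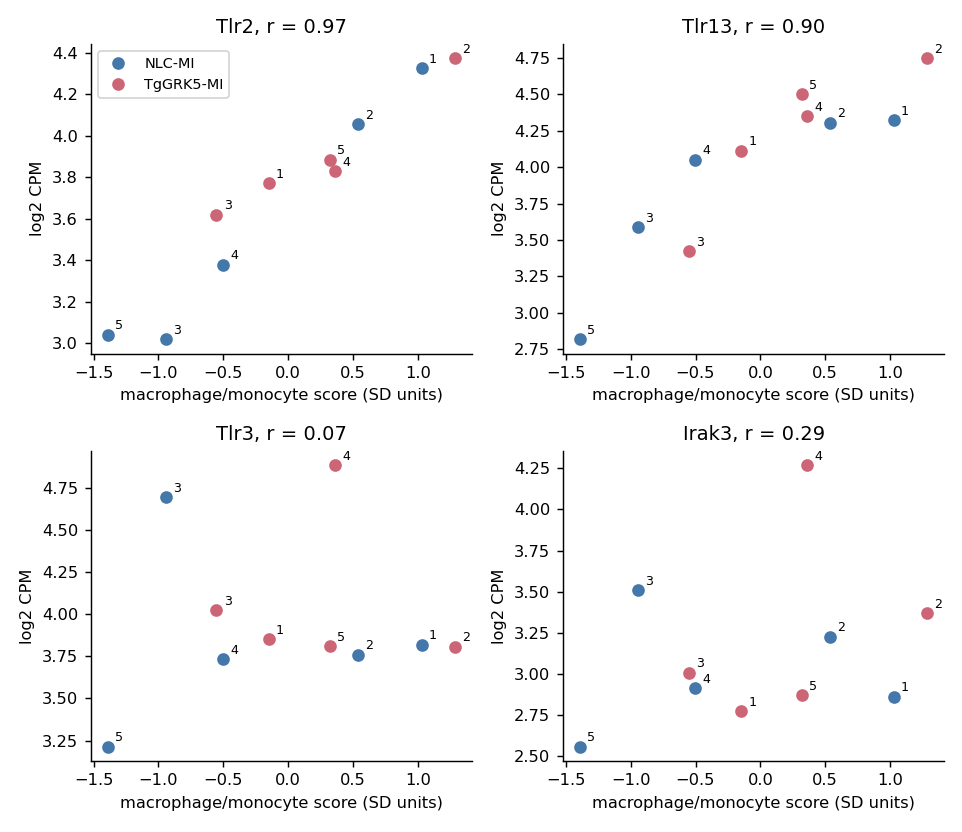
Log2 CPM (vertical axes) of Tlr2, Tlr13, Tlr3 and Irak3 against the macrophage and monocyte score in SD units (horizontal axes), with 1 point per library, NLC-MI in blue and TgGRK5-MI in red, and the replicate number beside it. Tlr2 (r = 0.97) and Tlr13 (r = 0.90) rise with the score in both groups, and Tlr3 (r = 0.07) and Irak3 (r = 0.29) do not follow it.

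The macrophage and monocyte markers overlapped between the genotypes. Of the 14 macrophage and monocyte markers, 0 passed an unadjusted p under 0.05 with edgeR. All 14 had a log2 fold change above 0, with a median of 0.19, where 50.2% of all genes tested were above 0. With single libraries left out it fell below 0 for Ptprc, Adgre1, Csf1r, C1qa, Fcgr1, Ms4a7 and Ccr2 (lowest, -0.20), and stayed above 0 for the other markers. Summed, they ran from 790 to 2306 CPM in NLC-MI and from 1243 to 2585 CPM in TgGRK5-MI, led by Lyz2 at a mean of 692 CPM and lowest for Ly6c2 at 2.12 CPM. NLC-MI 5, the lowest library for 6 of the 10 genes, had the lowest macrophage and monocyte score (-1.39) and the highest cardiomyocyte score (1.52). TgGRK5-MI 2, the highest library for 4 of the 10 genes, had the highest macrophage and monocyte score (1.29) and the lowest cardiomyocyte score (-1.10).

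Markers of other leukocytes were low. Neutrophil markers summed to 14.5 to 42.7 CPM, with Csf3r highest at a mean of 9.90 CPM and Ly6g lowest at 0.0157 CPM, and 0 of the 8 tested passed. Of 10 lymphocyte markers 2 were tested and 0 passed, and the list summed to 2.29 to 6.85 CPM, from Cd4 at 2.01 CPM to Cd3d at 0.0683 CPM. For dendritic cells 0 of 6 tested markers passed, with Bst2 at 45.05 CPM and Clec9a at 0.217 CPM, and the list summed to 32.1 to 107 CPM.

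Among resident cells, 0 of 8 endothelial markers passed (792 to 1598 CPM in sum, from Tek at 49.8 to Cdh5 at 315 CPM), and 0 of 8 fibroblast markers passed (4031 to 24766 CPM in sum, from Tcf21 at 9.46 to Col3a1 at 4028 CPM). Of 10 cardiomyocyte markers, from Ryr2 at 1136 to Myh6 at 25387 CPM, only Ryr2 passed, and it was lower in TgGRK5-MI (log2 fold change -0.93, unadjusted p = 0.00902 in edgeR). Of 8 mural cell markers (1088 to 2119 CPM in sum, from Kcnj8 at 23.2 to Acta2 at 541 CPM), 2 were lower, Cspg4 with a log2 fold change of -0.62 and Abcc9 with -0.67 (unadjusted p = 0.0497 and 0.0314 in edgeR). With any single library left out, 0 or 1 of the mural cell markers passed. Each of these lists was read against the 3.85% of all genes that passed the same threshold.

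The rest of the pathway was read from 6 lists with 94 further genes, of which 88 passed the filter. By edgeR's unadjusted p, 2 of the 88 (2.27%) were higher in TgGRK5-MI at the 0.05 threshold and 0 were lower, against 1.77% higher and 2.08% lower among all genes tested, and 0 passed an adjusted p under 0.10. The median log2 fold change of the 88 genes was 0.06, and 56 of them were above 0, as were 50.2% of all genes tested.

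Pycard (ENSMUSG00000030793, chromosome 7 from 127989708 to 127993867), the adaptor that joins Nlrp3 to Casp1, was at 14.4, 13.6, 10.99, 10.3 and 13.5 CPM in NLC-MI 1 to 5 and at 16.0, 20.6, 22.1, 17.9 and 22.3 CPM in TgGRK5-MI 1 to 5. Every TgGRK5-MI library was above every NLC-MI library, and 1% of all genes tested had groups that do not overlap. Means were 12.6 ± 1.81 and 19.8 ± 2.75 CPM (SD, n = 5 each). This gave a log2 fold change of 0.65 (standard error 0.16, 95% interval 0.30 to 1.00, edgeR unadjusted p = 0.00154, edgeR adjusted p = 0.495). The two-sided exact permutation test gave p = 0.00794, the smallest it allows, and with single libraries omitted the log2 fold change ran from 0.59 to 0.71. Pycard is described because it passed the unadjusted threshold in these libraries, so these values from the same libraries are no separate evidence. Its edgeR, DESeq2 or limma adjusted p ran from 0.0593 to 1.00 over the alternatives. The partners Nlrp3 and Casp1 themselves had log2 fold changes of 0.11 and -0.09.

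Lbp (ENSMUSG00000016024, chromosome 2 from 158306493 to 158332852), the plasma protein that hands lipopolysaccharide to Cd14 and Tlr4, was at 4.76, 4.78, 6.67, 3.28 and 3.14 CPM in NLC-MI 1 to 5 and at 5.95, 8.33, 8.87, 11.7 and 5.80 CPM in TgGRK5-MI 1 to 5. Only NLC-MI 3 reached into the TgGRK5-MI range, and all 5 TgGRK5-MI libraries were above the NLC-MI mean. Means were 4.53 ± 1.43 and 8.14 ± 2.44 CPM (SD, n = 5 each). Lbp had a log2 fold change of 0.85 (standard error 0.27, 95% interval 0.27 to 1.44, edgeR unadjusted p = 0.00798, edgeR adjusted p = 0.935), and the two-sided exact permutation test gave p = 0.0238. Its adjusted p ran from 0.332 to 1.00 over the alternatives. Lbp was picked in the same way as Pycard, and its values are likewise no separate evidence.

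**Figure D5:**
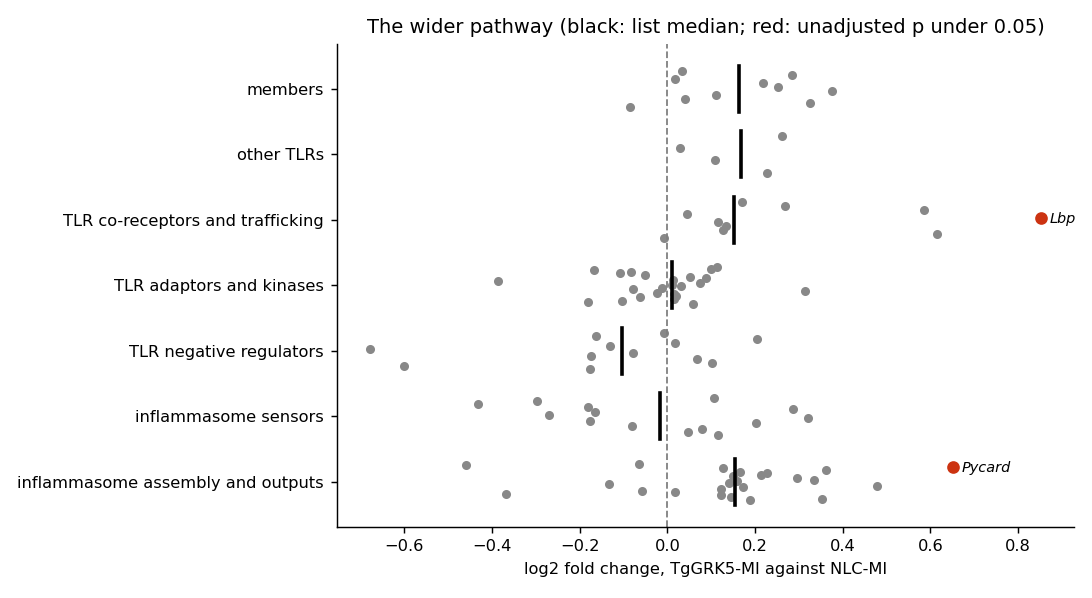
Log2 fold change of TgGRK5-MI against NLC-MI (horizontal axis) for each tested gene of the 10 described genes ("members", top row) and of the 6 further lists, with the list median as a black bar and genes with an unadjusted p under 0.05 in red. Lbp at 0.85 and Pycard at 0.65 are the only red points, and the medians lie between -0.10 and 0.17.

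By role, 4 of 6 other Toll-like receptor genes were tested and 0 passed, with a median log2 fold change of 0.17. The most abundant per kb of these were Tlr1, a partner of Tlr2 (5.82 ± 1.81 against 6.89 ± 2.41 CPM, SD, n = 5 each), and Tlr8, an endosomal receptor (5.79 ± 2.52 against 6.96 ± 1.85 CPM, SD, n = 5 each). Of 10 tested genes for co-receptors and receptor trafficking, 1 was higher, Lbp, and the median was 0.15. Of 24 tested adaptor and kinase genes 0 passed, at a median of 0.01. The most abundant per kb were Ube2n, a ubiquitin-conjugating enzyme (96.3 ± 70.1 against 104 ± 54.0 CPM, SD, n = 5 each), and Irak1, a kinase recruited by Myd88 (94.7 ± 14.9 against 90.7 ± 15.2 CPM, SD, n = 5 each).

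Of 12 negative regulators of Toll-like receptor signaling 0 passed, at a median of -0.10. The most abundant per kb were Dusp1, a phosphatase of MAP kinases (182 ± 105 against 120 ± 50.3 CPM, SD, n = 5 each), and Tnip1, a partner of the ubiquitin-editing protein A20 (54.4 ± 8.48 against 55.0 ± 6.85 CPM, SD, n = 5 each). Of 14 tested genes for inflammasome sensors and related sensors such as Nod1 and Nod2, 0 passed, at a median of -0.02. They were led per kb by Nlrp10 (51.6 ± 15.6 against 45.9 ± 8.70 CPM, SD, n = 5 each) and the peptidoglycan sensor Nod1 (29.9 ± 8.46 against 24.4 ± 7.49 CPM, SD, n = 5 each). Of 24 tested genes of inflammasome assembly and output, 1 was higher, Pycard, and the median was 0.15.

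Genes outside the pathway with the most similar pattern were found from the Pearson r with the mean standardised log2 CPM of the 10 genes over the 10 libraries. They were Cap1 at 0.989, Exo1 at 0.986, Atp6v1a at 0.983, Pls3 at 0.982 and Spidr at 0.981. These are the top values among 15232 genes and describe likeness across libraries that share depth and cell makeup, with no test.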

How the data were processed

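RNA-seq libraries of cardiomyocytes from 5 NLC-MI and 5 TgGRK5-MI mice were analysed from the deposited table of whole-number counts per gene. Per the labels, the authors made libraries with the TruSeq RNA v2 kit. The submitters' processing notes name Bowtie2, RSEM 1.2.31, DESeq2 and mm10. Strand setting, annotation and rounding of the deposited counts are not given in the sources used here. The genes and lists were chosen with earlier results of these data known.

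Symbols, exons and positions came from GENCODE M21 (51596 of 51789 identifiers). Counts were compared with edgeR 4.0.16 (TMM, filterByExpr by group, quasi-likelihood F test, Benjamini-Hochberg adjustment over 15232 genes, thresholds of adjusted p under 0.10 and unadjusted p under 0.05) in R 4.3.3. Log2 CPM used a prior count of 2. Exact permutation tests covered all 252 placements of 5 and 5 libraries. Replicate libraries differed beyond sampling noise (chi-square per degree of freedom 31.9 to 215). Floors cover counting error only. Alternatives were DESeq2 1.42.0 and its size factors in edgeR, no composition factor, limma-voom (limma 3.58.1), a robust fit, other filters, single libraries left out and a replicate block. Leaving out both libraries with the fewest counts and scoring all 8 marker lists were added after the data were seen.

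Genes named from the pathway lists were those with an unadjusted p under 0.05, otherwise the 2 with the highest CPM per kb. From marker lists they were the genes of highest and lowest mean CPM. Cspg4 and Abcc9 were named after their values were seen. Scripts were tested on simulated data. RefSeq promoter windows came from GRCm38.p6.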

Additional observations from a re-analysis of the deposited data

Results flagged for a closer look

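In TgGRK5-MI, Tlr3 in TgGRK5-MI 4 was at 29.4 CPM, the next library was at 16.2 CPM and the lowest at 13.9 CPM, so the gap was 0.852 of the range, above Dixon's 95% critical value of 0.71 for 5 values. Irak3 in the same library was at 19.2 CPM, the next was at 10.2 CPM and the lowest at 6.71 CPM, a gap of 0.719 of the range. These were 2 of 24 groups of libraries examined (10 genes, Lbp and Pycard, in each genotype), and chance alone flags about 1 in 20. TgGRK5-MI 4 held 9114469 counts, the fewest of its group, and both genes were also highest within NLC-MI in NLC-MI 3, the library with the fewest counts of all. Ube2n and Tab2 of the wider pathway were also highest in these libraries, while Nod1 was lowest in them. Whether depth plays a part was not tested.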

How the results depend on the processing

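Under all 19 alternatives of the fit, 0 of the 10 genes passed an unadjusted p under 0.05 in either direction. Pycard and Lbp, which were named because they passed it in edgeR's test, passed it in every alternative. The numbers across all genes moved more. Against 8 higher and 4 lower genes at an adjusted p under 0.10, higher genes numbered 13 with library size alone and with no filter, 4 with at least 10 counts in every library, 42 with DESeq2 and 41 with limma-voom, and 2 to 7 with single libraries left out. Lower genes numbered 27 with DESeq2, 9 with limma-voom, 1 without the 2 libraries with the fewest counts (an alternative chosen after seeing the data), and 1 to 3 with single libraries left out. Against 269 higher and 317 lower genes at an unadjusted p under 0.05, the numbers were 516 and 647 with no filter and 1138 and 672 with limma-voom, DESeq2 gave 493 lower, and single libraries left out gave 176 to 591 and 264 to 536. The causes were not tested.

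With the replicate number as a block, 5 genes were higher and 3 lower at the adjusted threshold, and 310 and 294 at the unadjusted one. Same-numbered libraries had correlations of 0.0717, 0.662, 0.381, -0.341 and 0.0848, with a mean of 0.172 against -0.0274 for different numbers. Of 10 libraries, 2 correlated best with their own number. The labels name no shared litter or day, and 5 such values cannot decide whether the numbers pair the mice. The replicate block changed no call among the 10 genes or the pathway genes.

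Other pathway genes past the unadjusted threshold were 4 higher and 1 lower with limma-voom, against 2 and 0, with 1 lower without the 2 libraries with the fewest counts and 0 to 1 lower with single libraries left out. Past the same threshold, cardiomyocyte markers were 2 with limma-voom and 1 to 2 with single libraries left out. Mural cell markers were 1 with library size alone, limma-voom or without the 2 libraries with the fewest counts, and 0 to 1 with single libraries left out. Dendritic cell and endothelial markers were 0 to 1 each.

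The sign of small log2 fold changes was not stable. With limma-voom it was -0.00777 for Tlr2, -0.0133 for Tlr4, -0.44 for Tlr9, -0.0817 for Myd88 and -0.036 for Irak3, and DESeq2 gave -1.39e-06 for Tlr4. Without the 2 libraries with the fewest counts it was -0.0527 for Tlr4, -0.13 for Tlr9 and -0.054 for Myd88. With single libraries left out it ran from -0.0437 to 0.49 (Tlr3), -0.0838 to 0.10 (Tlr4), -0.32 to 0.42 (Tlr9), -0.0852 to 0.14 (Myd88), -0.0486 to 0.30 (Nlrp3), -0.30 to 0.0598 (Casp1) and -0.0172 to 0.46 (Irak3). The difference of mean log2 CPM then ran from -0.0817 to 0.12 (Tlr4), -0.24 to 0.40 (Tlr9), -0.0991 to 0.18 (Myd88), -0.0223 to 0.31 (Nlrp3), -0.27 to 0.0953 (Casp1) and -0.0080 to 0.37 (Irak3), and without the 2 libraries with the fewest counts it was -0.0449 (Tlr4), -0.25 (Tlr9) and -0.0737 (Myd88).

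Pairs of gene and marker score with an adjusted p under 0.05 were 10 with library size alone (the 6 and Tlr4 with macrophages, Tlr4 and Tlr7 with endothelium and Nlrp3 with neutrophils) and 2 to 8 with single libraries left out, against 6. With single libraries left out r ran from -0.30 to 0.33 for Tlr3 with the macrophage and monocyte score, and with the neutrophil score from -0.48 to 0.26 (Tlr2), -0.34 to 0.40 (Tlr7), -0.41 to 0.049 (Tlr9), -0.26 to 0.49 (Tlr13), -0.22 to 0.12 (Myd88) and -0.48 to 0.0539 (Casp1). With the endothelial score it ran from -0.0435 to 0.36 (Tlr2) and -0.016 to 0.42 (Tlr9). With group means removed r was -0.00519 for Tlr3 with macrophages and, with neutrophils, -0.0521 for Tlr2 and -0.00231 for Myd88. With log2 summed CPM as the score it was -0.080 for Tlr3 with macrophages, 0.0573 for Tlr9 and 0.0451 for Casp1 with neutrophils, and -0.000764 for Tlr2 and -0.11 for Myd88 with endothelium. Library size alone gave 0.14 for Tlr9 and 0.18 for Casp1 with neutrophils. With the longest transcript as length, 4 neighbour pairs differed, against 2. Tlr9 and Nlrp3 had the lowest counts of the 10 genes, 11 and 18 in their lowest libraries.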
